A study of Mus musculus with 26 samples.

Results

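The adrenergic receptors are the cell-surface receptors for noradrenaline and adrenaline, and 8 of their genes are described here in the mouse aorta. They were found by matching the family's symbols to the Ensembl identifiers of the count files through an annotation of the same genome build. All 8 were present among the 54532 genes of the files. They are 3 alpha-1 genes (Adra1a, Adra1b, Adra1d), 3 alpha-2 genes (Adra2a, Adra2b, Adra2c) and 2 beta genes (Adrb1, Adrb3).

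Alpha-1 receptors couple mainly to Gq and raise calcium in smooth muscle, which contracts the vessel wall. Alpha-2 receptors couple to Gi and lower cyclic AMP. They sit on sympathetic nerve endings, where they restrain noradrenaline release, and on some smooth muscle and endothelial cells. Beta receptors couple to Gs and raise cyclic AMP, with the beta-1 type best known from heart muscle and the beta-3 type from fat cells.

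In the GENCODE annotation (GRCm38, the mm10 build) the alpha-1 genes lie in different places: Adra1a (ENSMUSG00000045875) at chr14:66635251-66771168, Adra1b (ENSMUSG00000050541) at chr11:43774606-43901210 and Adra1d (ENSMUSG00000027335) at chr2:131545850-131562283. The alpha-2 genes are Adra2a (ENSMUSG00000033717) at chr19:54044151-54048982, Adra2b (ENSMUSG00000058620) at chr2:127363208-127367221 and Adra2c (ENSMUSG00000045318) at chr5:35278319-35281763. The beta genes are Adrb1 (ENSMUSG00000035283) at chr19:56722199-56733113 and Adrb3 (ENSMUSG00000031489) at chr8:27225776-27250616. All 8 are annotated as protein-coding.

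RNA came from the aorta of male mice, in 26 libraries. Of these, 16 were from untreated mice, with 4 libraries in each of 4 groups: ascending and descending aorta of wild-type mice and of mice heterozygous for Fbn1 C1041G (C1041G/+). This germline change in fibrillin-1, a protein of elastic microfibrils, is used as a mouse model of Marfan syndrome. The other 10 were from the ascending aorta of C1041G/+ mice that received an antisense oligonucleotide (ASO), 5 with AGT-ASO, directed at angiotensinogen, and 5 with a control ASO. No wild-type mice and no descending aorta are in the ASO groups, and the labels give no ages. Libraries are named by the numbers in their labels: odd numbers are wild type and even numbers C1041G/+ in the untreated groups.

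The libraries held 17171652 to 28554356 counts. Smooth muscle markers summed to 17190 CPM (a library's counts scaled to a common total) or more in every library, with totals adjusted by edgeR's TMM factors. Heart muscle markers (9 genes) summed to 275 to 1104 CPM in wild-type ascending and 72.7 to 145 CPM in wild-type descending aorta. Ryr2, a marker of this list, averaged 102 and 92.3 CPM in these groups and made up most of the descending sum. Mesothelial markers (6 genes) summed to 265 to 381 against 5.06 to 11.3 CPM, in the same order. Endothelial markers (8 genes) summed to 158 to 406 CPM in the ASO libraries and 1295 to 2041 CPM in the untreated C1041G/+ ascending libraries. Agt itself was low in the ASO libraries, at 0.301 to 0.786 CPM with control ASO and 0.0960 to 1.46 CPM with AGT-ASO. It was removed there by the filter on low counts, and so gives no check of the labels.

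Adra2a had the largest regional difference of the 8 genes. The difference of Adra2b was favoured in advance by the filter on low counts, as described below. Adra2a, Adra2b and Adra2c each had a different pattern, so their promoters are shown first. Each is the stretch from 250 bases before to 50 bases after the RefSeq transcription start on GRCm38.p6. Capitals mark a GC box (GGGCGG, or CCGCCC on the other strand), a TATA box (TATAAA) or a CCAAT box (CCAAT, or ATTGG on the other strand).
Adra2a (chr19:54045009-54045308, plus strand): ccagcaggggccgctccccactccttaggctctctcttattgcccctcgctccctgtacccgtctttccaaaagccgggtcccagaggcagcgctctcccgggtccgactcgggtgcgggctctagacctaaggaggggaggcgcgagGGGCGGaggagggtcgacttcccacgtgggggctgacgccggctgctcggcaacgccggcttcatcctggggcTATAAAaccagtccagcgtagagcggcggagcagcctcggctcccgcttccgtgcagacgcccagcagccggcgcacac
Adra2b (chr2:127362929-127363228, plus strand): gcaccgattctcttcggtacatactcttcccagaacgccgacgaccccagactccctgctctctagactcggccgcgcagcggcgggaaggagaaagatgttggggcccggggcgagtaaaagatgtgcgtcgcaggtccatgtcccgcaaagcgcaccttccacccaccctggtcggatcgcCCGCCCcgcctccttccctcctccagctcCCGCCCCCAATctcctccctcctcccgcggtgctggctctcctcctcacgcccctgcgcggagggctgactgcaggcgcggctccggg
Adra2c (chr5:35278316-35278615, plus strand): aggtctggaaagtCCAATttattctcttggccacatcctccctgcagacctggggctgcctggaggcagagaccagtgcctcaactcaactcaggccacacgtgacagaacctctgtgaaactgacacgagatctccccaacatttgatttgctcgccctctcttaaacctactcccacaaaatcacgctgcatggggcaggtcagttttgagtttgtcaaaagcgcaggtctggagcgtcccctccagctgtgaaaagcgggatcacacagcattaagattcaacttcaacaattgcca
The Adra2a window held 1 GC box and 1 TATA box, and the Adra2b window held 2 GC boxes and 1 CCAAT box, of which a GC box and the CCAAT box adjoin without overlap. The Adra2c window held 1 CCAAT box. Of the 32851 mouse promoters of the same length, 35.7% held a GC box, 13.6% a TATA box and 37.4% a CCAAT box. The Adra2a and Adra2b windows held 28 and 29 CpG dinucleotides, more than 85.8% and 87.1% of promoters. The Adra2c window held 7, the median of all promoters. The RefSeq starts of Adra2a, Adra2b and Adra2c lie 1108, 29 and 247 bases from the gene starts in the GENCODE annotation used for the counts. The windows of Adra2a and Adra2c thus lie inside the annotated gene, that of Adra2c but for its first bases. This limits a comparison of the windows as promoters. These letters are a description and show no binding. Of the 8 genes, 5 had a promoter in the RefSeq table used here.

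Levels of different genes were compared per length, as CPM per kilobase of exon (RPKM). Adra1d, which encodes the alpha-1D receptor of large conduit arteries, had the highest level in all 6 groups. Its RPKM was 24.5 ± 8.10 (SD, n = 4) in wild-type ascending, 12.7 ± 3.04 in C1041G/+ ascending, 41.1 ± 11.6 in wild-type descending and 28.0 ± 6.99 in C1041G/+ descending aorta. It was 18.8 ± 4.07 (n = 5) with control ASO and 33.9 ± 10.5 with AGT-ASO. In no group did its libraries overlap those of the gene next in order. Adra1d made up 69.2% to 84.7% of the summed RPKM of the 8 genes, as group means.

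The second gene in the order was a different one in the 2 regions. In ascending aorta it was Adra1b, at 2.22 ± 0.413 RPKM in wild type and 2.18 ± 0.172 in C1041G/+ (SD, n = 4). In descending aorta it was Adra2a, at 6.90 ± 1.42 and 5.27 ± 1.36 RPKM. In these 4 groups the libraries of the second gene did not overlap those of the third. In both ASO groups Adra1b was second and its libraries overlapped those of Adrb1, with means of 2.53 and 2.23 RPKM with AGT-ASO.

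Below these, wild-type ascending aorta had Adra2c at 1.11 ± 0.191, Adrb1 at 1.04 ± 0.211 and Adrb3 at 0.746 ± 0.701 RPKM (SD, n = 4). Adra2b (0.214), Adra2a (0.203) and Adra1a (0.107) came last, and neighbours in this order overlapped. In wild-type descending aorta Adrb3 (1.53), Adra2c (1.32), Adra1b (1.06), Adrb1 (0.528), Adra1a (0.169) and Adra2b (0.0204) followed Adra2a, again with overlap between neighbours. The plot of the make-up per gene length shows these shares.

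**Figure D1:**
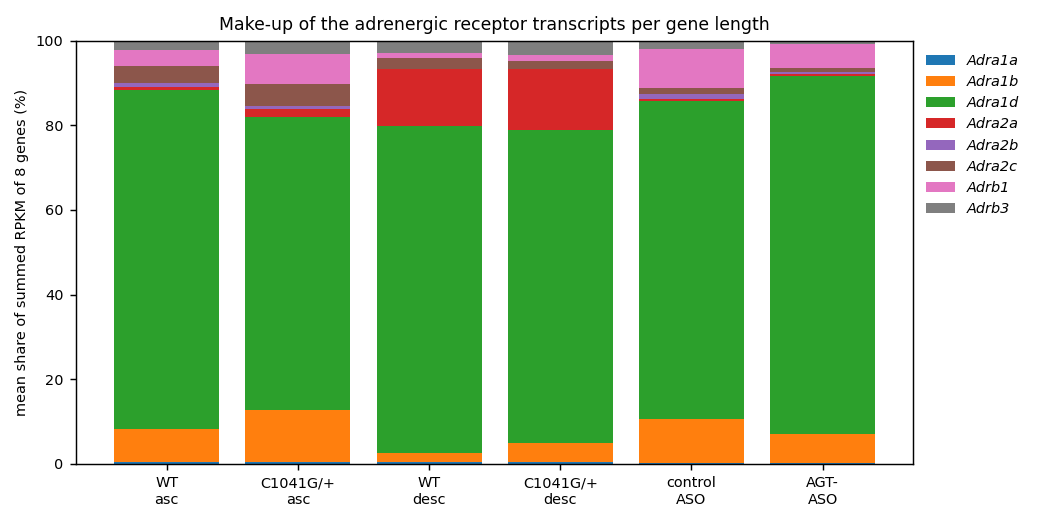
Mean share of each gene in the summed RPKM of the 8 adrenergic receptor genes, in percent, for the 6 groups (4 libraries in each untreated group, 5 in each ASO group). Adra1d fills 69.2% to 84.7% of every bar, and Adra2a fills 13.4% and 14.3% of the 2 descending bars but at most 1.94% of the others.

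Of the 8 genes, 3 were called different between ascending and descending aorta of wild-type mice, by edgeR's quasi-likelihood test at an adjusted p under 0.05, with 2 higher in the ascending and 1 higher in the descending aorta. Over all 15645 genes tested, 11.1% were called, 7.82% higher and 3.31% lower in the ascending aorta. The median log2 fold change, ascending over descending, was -0.45 for the 8 genes and -0.01 for all genes. Libraries of the 2 regions did not overlap for 3 of the 8 genes, against 14.5% of all genes. In C1041G/+ mice 3 of 8 were also called, 1 higher and 2 lower in the ascending aorta, against 9.92% of all genes, 6.41% higher and 3.51% lower. There the median was -0.02 for the 8 genes and -0.01 for all genes, and 5 of 8 did not overlap, against 14.4% of all genes. Adra2b passed the filter on low counts only through the ascending libraries, where it was high. Its difference was thus favoured in advance, and its call is no support. Of the other 7 genes, 2 were called and 2 did not overlap in wild type, with a median of -0.66. In C1041G/+ mice 3 of these 7 were called and 4 did not overlap, with a median of -0.47.

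**Figure D2:**
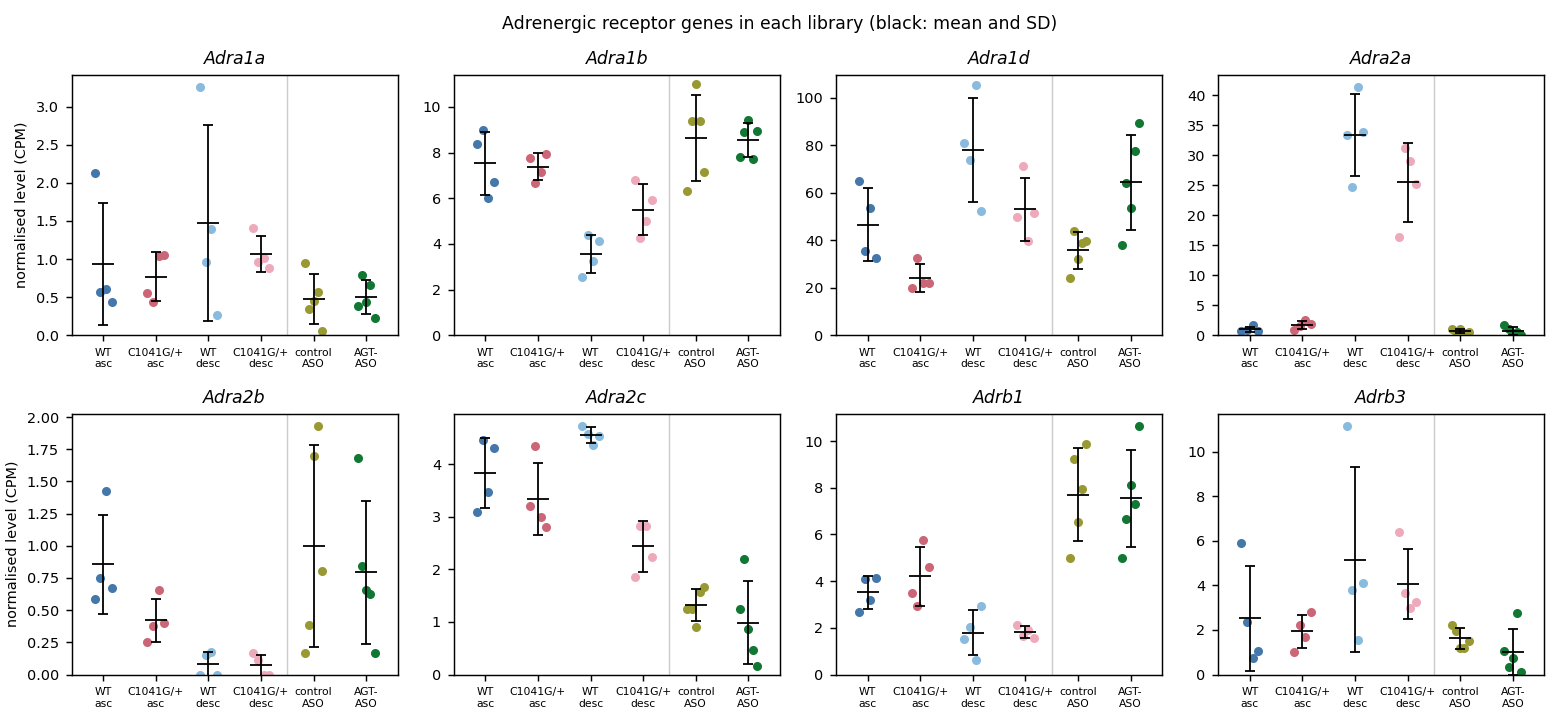
Level of each gene in CPM (linear axes starting at 0, one scale per gene) in each of the 26 libraries, with the mean and SD of each group in black. Adra2a lies at 16.3 to 41.4 CPM in the 8 descending libraries and at 2.62 CPM or below in the 8 untreated ascending ones.

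Among the alpha-1 genes, Adra1b was higher in the ascending aorta. The wild-type ascending libraries 1, 3, 5 and 7 had 8.37, 9.00, 6.01 and 6.70 CPM, and the descending ones 2.55, 4.37, 3.26 and 4.11 CPM. All 4 ascending libraries lay above all 4 descending ones. The log2 fold change was 1.07 ± 0.19 (SE), a 2.10-fold difference, with an edgeR adjusted p of 0.000704. In bulk tissue, fewer cells of a type and less RNA per cell cannot be told apart, here and for every gene below. In C1041G/+ mice the ascending libraries 2, 4, 6 and 8 had 7.77, 6.68, 7.14 and 7.95 CPM and the descending ones 6.80, 4.25, 5.01 and 5.94 CPM. These ranges overlapped, and the log2 fold change of 0.43 ± 0.19 was not called (edgeR adjusted p = 0.198).

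Adra1d lay in the opposite direction. In wild type, ascending libraries 1, 3, 5 and 7 had 64.9, 35.3, 53.6 and 32.5 CPM, and the descending ones 80.9, 73.8, 105 and 52.1 CPM. The ranges overlapped, since ascending library 1 was above descending library 7. Its log2 fold change of -0.75 ± 0.26 (SE) was not called (edgeR adjusted p = 0.0837). With the library number as a replicate block it was -0.76 ± 0.11 and was called (edgeR adjusted p = 0.00029). DESeq2 also called it (adjusted p = 0.019), as did edgeR without ascending library 1 (adjusted p = 0.0289) or without descending library 7 (0.0359).

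In C1041G/+ mice Adra1d was called. The ascending libraries 2, 4, 6 and 8 had 20.1, 32.7, 21.9 and 21.9 CPM and the descending ones 49.9, 71.4, 39.7 and 51.5 CPM, with no overlap. The descending level was 2.20-fold higher, a log2 fold change of -1.14 ± 0.26 (SE, edgeR adjusted p = 0.0105). Summed smooth muscle markers overlapped between the regions, at 21304 to 27638 CPM in ascending and 22005 to 26604 CPM in descending C1041G/+ libraries. Adra1d shares 147 exon bases with the antisense gene Gm14285. That gene had 5 to 58 counts per library against 401 to 1861 for Adra1d, and since the strand used in counting is not known here, reads of the shared bases cannot be assigned to one of them.

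Adra1a, the alpha-1A gene typical of smaller arteries, was low in every group. It had 0.431 to 2.13 CPM in wild-type ascending and 0.263 to 3.26 CPM in wild-type descending aorta. By region, its log2 fold change was -0.66 ± 0.59 (SE, edgeR adjusted p = 0.615) in wild type and -0.47 ± 0.61 (0.762) in C1041G/+ mice. Library 1 was the highest of its group in both regions, at 2.13 and 3.26 CPM. It also had the highest summed fat cell markers of each wild-type group, at 338 and 635 CPM, and the part of fat tissue in its Adra1a level was not tested.

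Of the alpha-2 genes, Adra2a had the largest regional difference of the 8 genes. Its product is the main receptor through which noradrenaline limits its own release. The wild-type ascending libraries 1, 3, 5 and 7 had 0.693, 0.838, 1.63 and 0.766 CPM (13 to 32 counts). The descending libraries had 33.4, 24.6, 41.4 and 33.9 CPM (485 to 711 counts). The lowest descending library was thus far above the highest ascending one. The descending level was 33.8-fold higher, a log2 fold change of -5.08 ± 0.32 (SE, 95% interval -5.76 to -4.40, edgeR adjusted p = 1.33e-08).

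The same direction was seen for Adra2a in C1041G/+ mice. Their ascending libraries 2, 4, 6 and 8 had 0.853, 1.52, 2.62 and 1.80 CPM and the descending ones 16.3, 31.1, 29.1 and 25.3 CPM. The descending level was 15.2-fold higher, a log2 fold change of -3.93 ± 0.30 (SE, 95% interval -4.56 to -3.29, edgeR adjusted p = 1.20e-07). The groups did not overlap in either genotype, and the descending library was higher in 8 of 8 pairs with the same number. The 10 ASO libraries, all ascending, had 0 to 1.78 CPM. AGT-ASO library 20 had no Adra2a count, which allows up to 0.168 CPM for counting error.

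Adra2b lay in the direction opposite to Adra2a, at far lower counts. Wild-type ascending libraries 1, 3, 5 and 7 had 0.586, 0.750, 1.43 and 0.670 CPM, from 11 to 28 counts. Of the descending libraries, 3 and 5 had 0.152 and 0.175 CPM, and 1 and 7 had no count. This was a log2 fold change of 3.30 ± 0.73 (SE, edgeR adjusted p = 0.00439). Summed over the groups, 70 counts stood against 6, a depth-scaled ratio of 10.6 with an exact 95% counting interval of 4.62 to 29.8. The gene passed the filter on low counts only through the ascending libraries: all 4 wild-type and 1 of the 4 C1041G/+ ones reached the cutoff of 0.532 CPM. Its regional difference was thus favoured in advance in both genotypes, and its p-values and ratio are descriptions only.

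In C1041G/+ mice the ascending libraries had 0.256, 0.380, 0.654 and 0.400 CPM of Adra2b. The descending libraries 2 and 4 had 0.168 and 0.113 CPM, and 6 and 8 had no count. The ranges did not overlap, but the log2 fold change of 2.52 ± 0.80 was not called by edgeR (adjusted p = 0.0571). DESeq2 called it (adjusted p = 0.0233), as did edgeR without descending library 2 (adjusted p = 0.0419). Summed heart muscle markers lay in the same direction as Adra2b. Their sum was 299 to 643 CPM in ascending and 126 to 245 CPM in descending C1041G/+ libraries. Ryr2, a marker of this list, lay the other way there, at means of 130 CPM in ascending and 155 CPM in descending aorta. It made up most of the descending sum, where Tnnt2 averaged 3.82 and Myh6 0.924 CPM. Myh6, the atrial and ventricular myosin heavy chain of the mouse, averaged 125 CPM in wild-type ascending and 0.674 CPM in wild-type descending aorta. Mesothelial markers differed in the same direction, and the part of either tissue in the Adra2b difference was not tested.

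Adra2c was not called by region in either genotype. The wild-type ascending libraries 1, 3, 5 and 7 had 3.09, 4.46, 3.46 and 4.31 CPM and the descending ones 4.73, 4.57, 4.37 and 4.53 CPM. By region, the log2 fold change was -0.25 ± 0.19 (SE, 95% interval -0.64 to 0.15, edgeR adjusted p = 0.540). In C1041G/+ mice the ascending libraries 2, 4, 6 and 8 had 3.20, 4.35, 2.999 and 2.80 CPM and the descending ones 1.85, 2.83, 2.83 and 2.24 CPM, with only ascending library 8 inside the descending range. The log2 fold change was 0.45 ± 0.20, with an unadjusted 95% interval of 0.04 to 0.86 that excludes 0 and an edgeR adjusted p of 0.195.

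The alpha-2 genes therefore had a different make-up per length in the 2 regions. In ascending aorta Adra2c took 73.1% ± 9.39 (SD, n = 4) of their summed RPKM in wild type and 68.4% ± 11.1 in C1041G/+ mice. In descending aorta Adra2a took 83.3% ± 3.27 and 87.7% ± 1.58. In the ascending aorta Adra2a took 13.1% ± 4.58 and 24.3% ± 8.91. Adra1d held the alpha-1 sum in both regions, with 84.3% to 96.9% as group means.

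Adrb1, the receptor that raises heart rate and force, was on the ascending side. In wild-type mice, ascending libraries 1, 3, 5 and 7 had 2.66, 4.10, 3.21 and 4.12 CPM and the descending ones 1.52, 2.03, 0.640 and 2.95 CPM. Descending library 7 lay above ascending library 1, and the log2 fold change of 0.97 ± 0.33 (SE) was not called (edgeR adjusted p = 0.068). It was called with the replicate block (edgeR adjusted p = 0.0151), without a filter on low counts (edgeR, 0.043), by DESeq2 (adjusted p = 0.0242) and without descending library 7 (edgeR, 0.0136).

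In C1041G/+ mice Adrb1 was called. The ascending libraries 2, 4, 6 and 8 had 3.50, 2.93, 5.78 and 4.60 CPM and the descending ones 2.13, 1.64, 1.92 and 1.56 CPM, with no overlap. This gave a log2 fold change of 1.21 ± 0.33 (SE), a 2.31-fold difference with an edgeR adjusted p of 0.0223. The call was lost without ascending library 6 (adjusted p = 0.0781), descending library 4 (0.0614) or descending library 8 (0.0669). Summed heart muscle markers were higher in the ascending libraries, as given above, although Ryr2 was not in C1041G/+ mice. Their part in the Adrb1 difference was not tested.

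Adrb3, the beta-3 receptor of fat cells, was on the descending side with a wide spread. The wild-type ascending libraries 1, 3, 5 and 7 had 5.92, 2.34, 0.764 and 1.05 CPM and the descending ones 11.1, 3.81, 1.57 and 4.11 CPM. Library 1 was the highest in both regions. The log2 fold change was -1.04 ± 0.61 (SE, edgeR adjusted p = 0.376). With the replicate block it was -1.11 ± 0.33 and was called (edgeR adjusted p = 0.0373), and it was also called without ascending library 1 (edgeR, -1.88 ± 0.58, adjusted p = 0.0498).

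In C1041G/+ mice the ascending libraries 2, 4, 6 and 8 had 1.02, 2.23, 1.69 and 2.80 CPM of Adrb3. The descending ones had 6.40, 3.68, 2.99 and 3.26 CPM, with no overlap. The log2 fold change of -1.08 ± 0.62 was not called (edgeR adjusted p = 0.379), but was with the replicate block (edgeR adjusted p = 0.0475). Adrb3 shares 839 exon bases with the antisense gene Gm45470, which had 0 to 15 counts per library.

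Summed fat cell markers (9 genes) lay in the same direction as Adrb3. They summed to 338, 196, 103 and 86.0 CPM in the wild-type ascending libraries 1, 3, 5 and 7 and to 635, 309, 167 and 252 CPM in the descending ones. In C1041G/+ mice they summed to 74.8 to 170 CPM in ascending and 168 to 452 CPM in descending libraries. None of the 9 markers was at 0 in an untreated library. Fabp4 was the largest part of the sums, at means of 94.9 CPM in wild-type ascending and 176 CPM in wild-type descending aorta. Ucp1, the uncoupling protein of brown fat, averaged 2.43 and 27.0 CPM there. Lep lay the other way in wild type, at 1.59 and 0.952 CPM. The part of fat tissue in the Adrb3 levels was not tested.

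**Figure D3:**
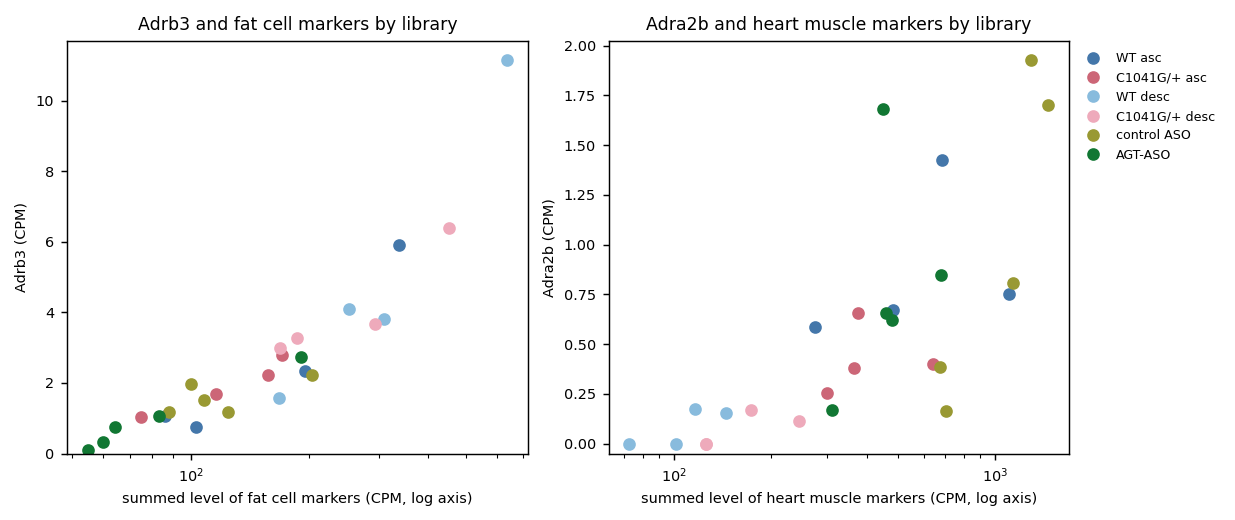
Left, Adrb3 level against the summed level of 9 fat cell markers, and right, Adra2b level against the summed level of 9 heart muscle markers, one point per library (26), with CPM on all axes and a log scale on the horizontal axes. The library with the most Adrb3, wild-type descending 1 at 11.1 CPM, also has the highest fat cell sum, 635 CPM, while the 8 descending libraries have the lowest 8 heart muscle sums.

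Pairs of libraries with the same number showed the same side throughout for 6 of the 8 genes. The share of all genes that did so was not computed, so this count is a description only. Adra2b, which is among them, passed the filter on low counts only through ascending libraries. Adra1b, Adra2b and Adrb1 were higher in the ascending library in 8 of 8 pairs. Adra1d, Adra2a and Adrb3 were higher in the descending library in 8 of 8 pairs. Adra2c was higher in the descending library in all 4 wild-type pairs (log2 ratios of -0.61 to -0.04) and in the ascending library in all 4 C1041G/+ pairs (0.09 to 0.79). Adra1a was higher in the ascending library in 3 of 8 pairs. The log2 ratio ranged from -5.59 to -3.48 for Adra2a, from -1.31 to -0.32 for Adra1d and from 0.19 to 1.71 for Adra1b.

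**Figure D4:**
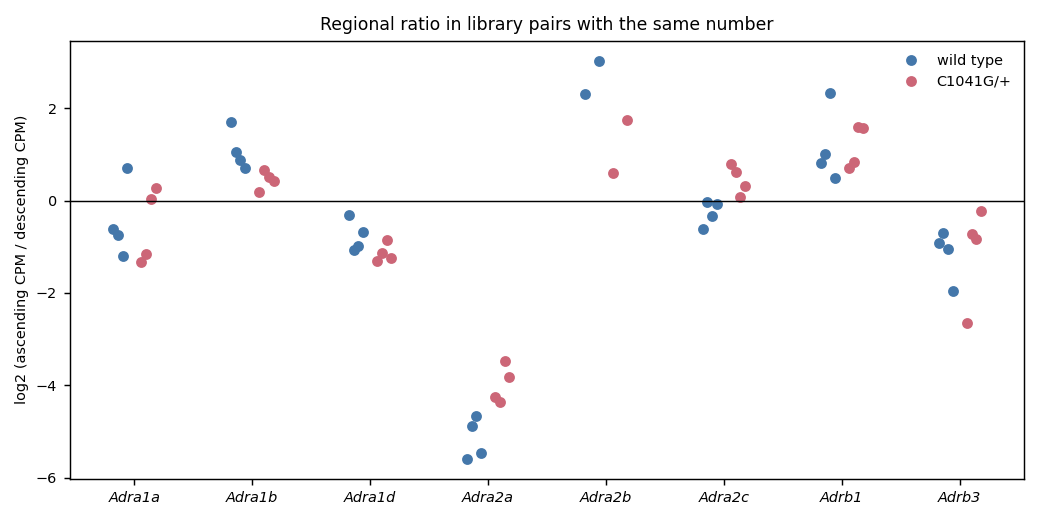
Log2 ratio of ascending to descending CPM in each pair of libraries with the same number, for wild-type (blue) and C1041G/+ (red) pairs. All 8 pairs of Adra2a lie between -5.59 and -3.48, and 4 pairs of Adra2b are not drawn because their descending library had no count.

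No gene of the 8 was called for an interaction of genotype and region, where 0.00639% of the 15645 genes (1 gene) were called by edgeR. At an unadjusted p under 0.05 there were 3, Adra2a, Adra2c and Adra1b. They ranked only 360, 375 and 469 by p among the 15645 genes. The regional log2 difference of Adra2a was smaller in C1041G/+ mice by 1.16 ± 0.44 (SE, edgeR adjusted p = 0.831). For Adra2c the interaction was 0.70 ± 0.27 (edgeR adjusted p = 0.831), and for Adra1b it was -0.64 ± 0.27 (adjusted p = 0.880). DESeq2 and the replicate block also called none of the 8. The regional differences above are thus not shown to differ between the genotypes, although different genes passed the threshold in each.

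Between genotypes in the ascending aorta, none of the 8 genes was called by edgeR, against 2.19% of all genes. Only 1 had an unadjusted p under 0.05, at rank 528 by p among the 15645 genes. That gene was Adra1d, which averaged 46.6 ± 15.4 CPM (SD, n = 4) without the mutation and 24.1 ± 5.76 CPM with it. The mutant libraries lay at 20.1 to 32.7 CPM and the wild-type ones at 32.5 to 64.9 CPM, so that only mutant library 4 and wild-type library 7 overlapped. Its log2 fold change was -0.95 ± 0.26 (SE, edgeR adjusted p = 0.0771). DESeq2 called it (adjusted p = 0.00462), and so did limma with the number as a random replicate block, narrowly (adjusted p = 0.0499). DESeq2 called 779 of the 15645 genes in this comparison, against 342 by edgeR. None of the 8 edgeR fits with a library left out called Adra1d. Summed smooth muscle markers were 17190 to 24132 CPM in wild-type and 21304 to 27638 CPM in mutant ascending libraries.

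The other alpha genes in the ascending aorta had log2 fold changes of -0.03 ± 0.18 (Adra1b), 0.77 ± 0.38 (Adra2a), -1.03 ± 0.57 (Adra2b), -0.20 ± 0.19 (Adra2c) and -0.27 ± 0.61 (Adra1a). The beta genes had 0.25 ± 0.31 (Adrb1) and -0.38 ± 0.63 (Adrb3). Without wild-type library 1, the values of Adra1a and Adrb3 turned positive, to 0.51 and 0.46. The median was -0.24 for the 8 genes, -0.20 without Adra2b and -0.01 for all genes.

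In the descending aorta 1 of 8 genes was called between genotypes, against 1.21% of all genes. This was Adra2c, lower in C1041G/+ mice. The wild-type libraries 1, 3, 5 and 7 had 4.73, 4.57, 4.37 and 4.53 CPM (75 to 90 counts), and the mutant libraries 2, 4, 6 and 8 had 1.85, 2.83, 2.83 and 2.24 CPM (33 to 53 counts). The mutant libraries lay below all wild-type ones, and Adra2c was 1 of 8 genes without overlap, against 7.29% of all genes. The mutant level was 1.86-fold lower, a log2 fold change of -0.90 ± 0.19 (SE, edgeR adjusted p = 0.0258).

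The call for Adra2c was close to the threshold. It was lost in a fit of only the 8 descending libraries (edgeR adjusted p = 0.0545), and without wild-type library 1, 3 or 7 (0.0658, 0.0635 and 0.0578) or mutant library 2 or 8 (0.097 and 0.0913). The log2 fold change in these fits lay between -0.79 and -0.90. Summed endothelial markers were 2353 to 3224 CPM in the wild-type and 2036 to 2346 CPM in the mutant descending libraries. Of these markers, Emcn and Kdr lay the other way, at means of 13.1 and 4.49 CPM in wild type and 21.8 and 4.73 CPM in C1041G/+ mice. The part of endothelium in the Adra2c difference was not tested. Ascending libraries averaged 3.83 ± 0.658 CPM of Adra2c (SD, n = 4) for wild type against 3.34 ± 0.693 CPM for C1041G/+.

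Of the other 7 genes in the descending aorta, Adra1b averaged 3.57 ± 0.827 CPM (SD, n = 4) without and 5.50 ± 1.11 CPM with the mutation. This was a log2 fold change of 0.62 ± 0.19 that was not called (edgeR adjusted p = 0.163). Adra1d had -0.56 ± 0.26 (edgeR adjusted p = 0.451) and Adra2a -0.39 ± 0.24 (0.626). Adrb1 had 0.01 ± 0.34, with a 95% interval of -0.70 to 0.73. The median was -0.36 for the 8 genes and -0.00017 for all genes.

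With AGT-ASO against control ASO none of the 7 genes tested was called by edgeR, against 0.0668% of 14981 genes (10 genes). Adra1a did not pass the filter on low counts there, with 4 of 10 libraries at or above the cutoff of 0.496 CPM. At an unadjusted p under 0.05 there was 1 gene, Adra1d, at rank 430 by p among the 14981 genes. The control ASO libraries 8, 12, 13, 16 and 17 had 24.2, 43.9, 32.0, 38.7 and 39.7 CPM, and the AGT-ASO libraries 14, 15, 18, 19 and 20 had 38.0, 63.9, 53.6, 77.4 and 89.2 CPM. Of the AGT-ASO libraries, 4 lay above every control library and library 14 lay within their range. The log2 fold change was 0.85 ± 0.24 (SE, edgeR adjusted p = 0.227), and DESeq2 called it (adjusted p = 0.0425). DESeq2 called 289 of the 14981 genes in this comparison, against 10 by edgeR. None of the 10 edgeR fits with a library left out called Adra1d. Summed heart muscle markers were 675 to 1466 CPM with control ASO and 310 to 677 CPM with AGT-ASO, and their part in the Adra1d values was not tested.

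The other genes tested in the ASO libraries had log2 fold changes of -0.01 ± 0.16 (Adra1b), 0.02 ± 0.67 (Adra2a), -0.31 ± 0.62 (Adra2b), -0.43 ± 0.49 (Adra2c), -0.03 ± 0.21 (Adrb1) and -0.65 ± 0.56 (Adrb3). Adrb1 had 7.71 ± 2.00 CPM (SD, n = 5) with control ASO and 7.55 ± 2.09 CPM with AGT-ASO, and 4.20 ± 1.26 CPM (n = 4) in untreated C1041G/+ ascending aorta. Adra2c had 1.33 ± 0.301, 0.989 ± 0.790 and 3.34 ± 0.693 CPM in the same order. The ASO and untreated libraries were scaled in separate fits and were not tested against each other, and their endothelial marker sums differed as given above.

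**Figure D5:**
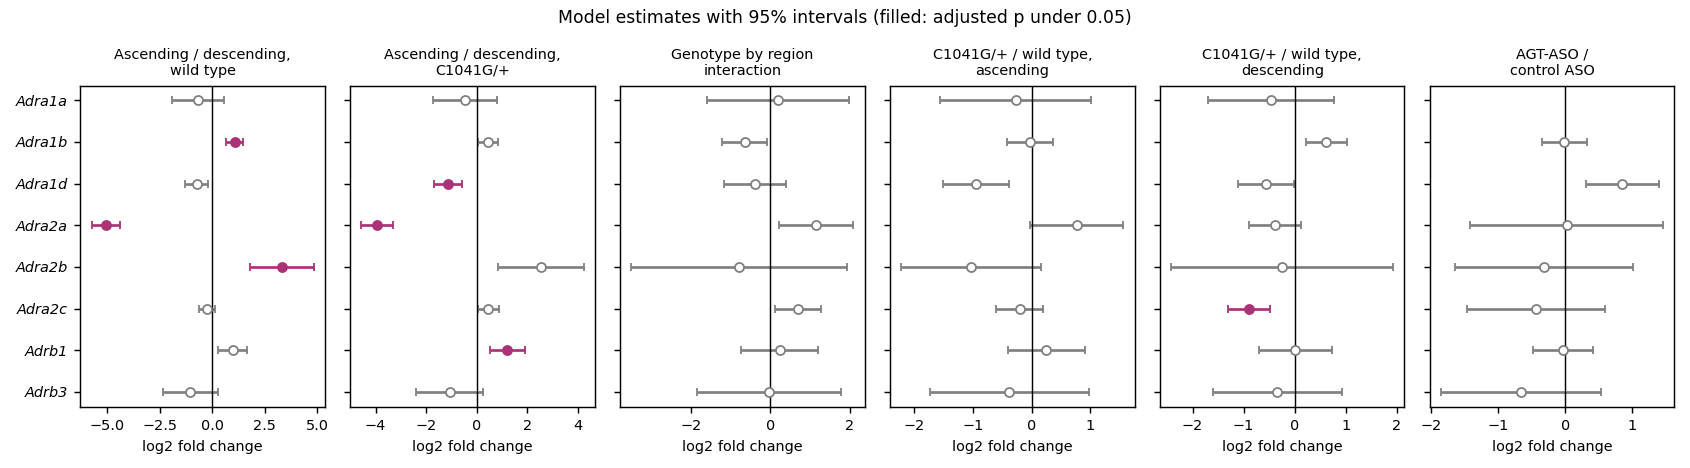
Log2 fold change of each gene with its 95% interval in the 6 comparisons, from edgeR, with filled points for an adjusted p under 0.05 (each panel has its own scale). The regional panels hold 3 filled points each, the descending genotype panel 1 (Adra2c at -0.90), and the other panels none. Adra1a has no point in the ASO panel.

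For each receptor, the genes most like it were the 3 with the highest Pearson r of log2 CPM over the 16 untreated libraries, among 12550 protein-coding genes with a mean of at least 1 CPM. These r values are descriptions, since libraries of a region share its other differences. For Adra2a they were Hoxb5 (r = 0.984), Hoxb8 (0.978) and Hoxb9 (0.977), transcription factor genes of the body axis. Hoxb8 and Hoxb9 had no count in the untreated ascending groups, against 18.5 and 7.19 CPM in wild-type descending aorta. With group means removed, the r of Adra2a with Hoxb5 was 0.485.

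For Adrb3 they were Fabp4 (r = 0.948), which encodes a fatty acid binding protein of fat cells and belongs to the fat cell markers, Slc36a2 (0.947) and Tmem45b (0.945). With group means removed the r with Fabp4 was 0.938. For Adra2b they were Gas2l3 (0.909), Corin (0.907) and Myl3 (0.907). With group means removed, the r values of these 3 genes with Adra2b were 0.609, 0.484 and 0.421. Corin encodes the protease that activates the atrial natriuretic peptide, and Myl3 a ventricular myosin light chain. For Adra1b they were Npy1r (0.917), a receptor of neuropeptide Y, Mrps6 (0.908) and Trim35 (0.905). Npy1r averaged 188 CPM in wild-type ascending and 73.3 CPM in wild-type descending aorta.

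For Adra1d they were Map3k1 (r = 0.933), Rgma (0.924) and Ctdsp2 (0.911), and for Adrb1 they were C4b (0.889), Lst1 (0.888) and Tmem204 (0.887). For Adra2c they were Itpr3 (0.823), Exoc3l2 (0.814) and Cacna2d3 (0.805), and for Adra1a Ppara (0.828), Ralgapa2 (0.810) and Wdfy3 (0.807).

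The genes that act beside the receptors came from lists by role. These lists were chosen with earlier results of these data known, so their shares beside those of all genes are descriptions only. Among genes for the synthesis, transport and breakdown of catecholamines, the transporter genes Slc22a3 and Slc22a2, whose products take up catecholamines outside neurons, were lower in the wild-type ascending aorta. Slc22a3 had 0.670 ± 0.349 CPM (SD, n = 4) in ascending and 5.23 ± 0.750 CPM in descending aorta, a log2 fold change of -2.95 ± 0.30 (SE, edgeR adjusted p = 1.58e-06). Slc22a2 had -2.02 ± 0.25. Slc6a2, the noradrenaline transporter of sympathetic neurons, was higher at 1.54 ± 0.38 (2.13 against 0.731 CPM). Maob, a monoamine oxidase named after its values were seen, was higher at 0.65 ± 0.16.

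In C1041G/+ mice Slc22a3 and Slc22a2 were also lower in the ascending aorta, with log2 fold changes of -4.26 ± 0.31 and -2.32 ± 0.24 (SE). Between genotypes, Slc6a2 was lower in C1041G/+ ascending aorta (-1.72 ± 0.39, edgeR adjusted p = 0.0244), and Slc22a3 was higher in C1041G/+ descending aorta (1.04 ± 0.25, edgeR adjusted p = 0.0494). Th and Dbh, the synthesis enzymes of noradrenaline, were near 0: Th averaged 0.168 CPM in wild-type ascending aorta and had no count in the 8 descending libraries.

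Of 16 G protein genes, 2 were higher and 1 lower in the wild-type ascending aorta, 18.8% called against 11.1% of all genes. Gnao1, a Gi/o alpha subunit, had 80.9 ± 7.09 CPM (SD, n = 4) against 35.3 ± 3.01 CPM, and Gng2 had a log2 fold change of 0.77 ± 0.21 (SE). Gna11, a Gq-type subunit, had -0.21 ± 0.06. In C1041G/+ mice Gnao1 alone of the 16 was called (6.25%, against 9.92% of all genes), at 0.87 ± 0.09. Of 27 effector genes (adenylyl cyclases, phospholipases C, calcium release channels and protein kinases A and C), 2 were higher and 1 lower in wild type, 11.1% called and so the same share as over all genes. These were Prkar1b (2.36 ± 0.30), Plcb1 (0.42 ± 0.11) and Prkar2a (-0.36 ± 0.08). In C1041G/+ mice Prkar1b (1.47 ± 0.27) and Plcb2 (1.28 ± 0.36) were higher and Adcy2 (-0.87 ± 0.27) and Prkar2a (-0.37 ± 0.08) lower, 14.8% called against 9.92% of all genes.

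Of 12 genes for desensitisation and scaffolds, 3 were higher in the ascending aorta in both genotypes, against 7.82% of all genes in wild type and 6.41% in C1041G/+ mice. Grk3, a kinase that phosphorylates active receptors, had 0.68 ± 0.12 (SE) in wild type and 0.65 ± 0.12 in C1041G/+ mice. Slc9a3r1, a PDZ scaffold, had 0.77 ± 0.15 and 1.20 ± 0.15, and Ezr, which encodes the membrane linker ezrin, 2.38 ± 0.17 and 2.19 ± 0.17. Ezrin is also abundant in mesothelium, whose markers differed in the same direction, and its part was not tested. Of 9 cyclic AMP phosphodiesterase genes tested, Pde3b was lower in wild type (-0.51 ± 0.16) and Pde4b higher in C1041G/+ mice (0.83 ± 0.19), 11.1% called in each genotype, near the share of all genes. The median log2 fold change of the lists of G proteins, effectors, desensitisation genes and phosphodiesterases by region lay between 0.0066 and 0.24 in wild type and between -0.04 and 0.08 in C1041G/+ mice, against -0.01 for all genes in both. None of the genes in these lists was called by edgeR for the interaction or for AGT-ASO. Over all genes 0.00639% and 0.0668% were called there, so that no call in a short list is informative.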

How the data were processed

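The files the authors deposited hold raw read counts for each Ensembl gene; per the submitters' processing notes the tools were fastp and STAR 2.6.1d and the build mm10. The counting tool is not given in the sources used here, and neither is its strand setting. GENCODE M21 (GRCm38) gave names to 99.9% of the 54532 identifiers, and exon lengths for RPKM. One further receptor gene of the family, and some results of the catecholamine list, are not reported here. The members and gene lists were chosen with earlier results of these data known.

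Counts were fitted with edgeR 4.0.16 (R 4.3.3): TMM factors, filterByExpr by group, robust quasi-likelihood F tests, two-sided, Benjamini-Hochberg adjustment over all genes within a comparison, threshold 0.05. The 16 untreated libraries were fitted together (15645 genes, 12 residual degrees of freedom) and the 10 ASO libraries apart (14981 genes, 8). The script was tested on simulated data. The text names all 8 receptors, up to 4 genes of a list by smallest p, and the 3 genes most like each receptor.

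Alternatives were size factors of DESeq2, DESeq2 1.42.0, no filter, non-robust estimates, only the compared groups, each library left out, a replicate block (limma 3.58.1 with a random block for genotype), the longest transcript as length and, chosen after seeing the data, both libraries numbered 1 left out.

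Ascending and descending libraries share numbers in the labels. After group means were removed, all 8 same-number pairs correlated across genes (r of 0.162 to 0.305, against a mean of -0.033 for other pairs, with 6 of 8 closest to their own number). The main fit still used group means only, so its p-values take no account of this pairing. The replicate block, which does, is given as an alternative. The labels do not say that a number is 1 mouse, nor that libraries of a group are separate mice; if they are not, p-values measure technical spread. The libraries held 17171652 to 28554356 counts. Intervals and limits on counts of 0 (3 counts) cover counting error only.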

Additional observations from a re-analysis of the deposited data

Results flagged for a closer look

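In 3 of the 48 sets of libraries tested (8 genes in 6 groups), 1 library stood apart from the others by Dixon's criterion, which chance meets in about 1 in 20. Adra1a in wild-type ascending library 1 was 2.13 CPM, with the other 3 at 0.431 to 0.611 CPM. Adra1d in C1041G/+ ascending library 4 was 32.7 CPM, with the other 3 at 20.1 to 21.9 CPM. Adra2a in wild-type ascending library 5 was 1.63 CPM, with the other 3 at 0.693 to 0.838 CPM.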

How the results depend on the processing

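The number of receptor genes called by region in wild type was 3, but 5 with DESeq2 and 6 with the replicate block. It was 3 to 5 with each library left out in turn. Over all genes it was 1742 of 15645, but 2032 with DESeq2 and 2424 with the replicate block. With a library left out it was 1409 to 1782. Adra2b, favoured in advance by the filter on low counts, is in each of these receptor counts, and its call is no support. In C1041G/+ mice 3 receptor genes were called by region, but 4 with DESeq2 and 4 with the replicate block (Adrb3 added). It was 2 to 4 with a library left out. Adra2b was the gene added by DESeq2, and its calls here are no support for the same reason. Over all genes 1552 were called, 1881 with DESeq2, 2321 with the replicate block and 1247 to 1425 with a library left out. By genotype in the ascending aorta the number of receptor genes called was 0, but 1 (Adra1d) with DESeq2 and 1 with the replicate block. Over all genes 342 were called, 779 with DESeq2 and 400 with the replicate block. By genotype in the descending aorta 1 receptor gene (Adra2c) was called, and 0 with only the compared groups. It was 0 without both libraries numbered 1, and 0 to 1 with a library left out. Over all genes 189 were called, and 162 of 14581 with only the compared groups. Without both libraries numbered 1 it was 158 of 15831, and 128 to 170 with a library left out. With AGT-ASO the number of receptor genes called was 0, but 1 (Adra1d) with DESeq2. Over all genes it was 10 of 14981, but 289 with DESeq2. The cause of these changes was not tested, except that leaving out libraries also leaves fewer samples. The replicate block changed no other call of the 8 genes.

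Changes of sign were seen in values that were not called. Without both libraries numbered 1, the log2 genotype difference in the ascending aorta became 0.50 for Adra1a, 0.025 for Adra1b and 0.46 for Adrb3. In the descending aorta it became 0.28 for Adra1a, -0.058 for Adrb1 and 0.36 for Adrb3, and the Adrb3 interaction became 0.10. With the replicate block the Adrb3 interaction was 0.041 and the descending genotype difference of Adra1a was 0.0044.

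With each library left out in turn, the ranges that crossed 0 were as follows. By region in wild type, Adra1a lay at -1.44 to 0.094. By genotype in the ascending aorta, Adra1a lay at -0.51 to 0.51, Adra1b at -0.12 to 0.074 and Adrb3 at -0.68 to 0.46. By genotype in the descending aorta, Adra1a lay at -0.82 to 0.28, Adra2b at -1.06 to 0.33, Adrb1 at -0.25 to 0.36 and Adrb3 at -0.64 to 0.36. For the interaction, Adra1a lay at -0.56 to 0.97, Adra2b at -1.36 to 0.037, Adrb1 at -0.11 to 0.50 and Adrb3 at -0.74 to 0.80. With AGT-ASO, Adra1b lay at -0.11 to 0.086, Adra2a at -0.65 to 0.33, Adra2b at -0.79 to 0.10 and Adrb1 at -0.19 to 0.086. Adra1a, which passed the filter there in 6 of these 10 fits, lay at -0.22 to 0.24.

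With the longest transcript in place of the union of exons, the RPKM of Adra1a in wild-type ascending aorta was 0.219 in place of 0.107. Counts per library of 0 to 54 for Adra2b and 1 to 60 for Adra1a limit what can be seen of these genes.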
